A study of Drosophila melanogaster with 2 samples.

Results

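The small nuclear RNA (snRNA) genes of Drosophila melanogaster were followed here in a map of Camta binding in embryos. All 32 genes whose FlyBase symbol begins with snRNA: were taken, which are also all genes of the Ensembl biotype snRNA, out of 18018 annotated genes other than transposable elements and pseudogenes. They were 5 U1, 6 U2, 3 U4, 7 U5 and 3 U6 genes, the minor spliceosome genes U11, U12, U4atac and U6atac, and U7, 7SKa, 7SKb and LU. The map came from chromatin immunoprecipitation and sequencing (ChIP-seq) of whole embryos of both sexes, aged 0 to 24 h. The flies carried Camta-MiMIC-GFP, an exon for enhanced green fluorescent protein placed in an intron of Camta, so that the gene makes a Camta-eGFP fusion; an antibody against GFP was used. Camta belongs to the calmodulin-binding transcription activators. Both biological replicates, 2 and 3, belong to this single group, and the labels give the same donor line for both; whole embryos mix all cell types, and untagged embryos were not analysed here. A gene is called bound below when its start lay at most 500 bp from a summit in the authors' list of peaks reproducible by the irreproducible discovery rate (IDR).

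Spliceosomal snRNAs form the RNA core of the machinery that removes introns. U1 pairs with the 5′ splice site, U2 with the branch point, U4 holds U6 until activation, U5 aligns the exons, and U6 takes part in catalysis; U11, U12, U4atac and U6atac serve the minor spliceosome. U7 acts in histone mRNA 3′ end formation and 7SK RNA holds the elongation kinase P-TEFb inactive. In flies most snRNA genes are transcribed by RNA polymerase II, and U6, U6atac and 7SK by RNA polymerase III, all from short promoters around an element called PSEA, which the SNAP complex recognises; the polymerase III genes also hold a TATA box. For LU no role is given here.

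The PSEA core stood before 17 of the 32 genes in the letters TTCNCAACT, exact and on the gene strand within 100 bp before the start. Its first base lay 55 to 61 bp upstream. It was found at 6 of the 9 bound and 11 of the 23 unbound genes, which was not tested. Among 17864 other genes 0.23% held these letters in the same stretch. The shorter letters ATTCNCAA, which overlap that core and were chosen after the promoters had been read, stood before 31 of 32 genes, 56 to 65 bp upstream, against 1.06% of other genes; snRNA:7SKb was the exception. All 9 bound genes and 22 of the 23 others held the shorter core. Letters chosen after reading these promoters cannot separate bound from unbound genes when nearly all hold them. The 70 bases before the start are shown for the 5 U1 genes, of which U1:21D and U1:95Ca were bound and the others were not. All of them but the unbound U1:95Cc also held TTCNCAACT. Sequences are from the RefSeq Release 6 assembly, which has dm6 coordinates, written 5′ to 3′ on the gene strand, with the shorter core in capitals.
snRNA:U1:95Ca, chr3R:23859631-23859700, minus strand: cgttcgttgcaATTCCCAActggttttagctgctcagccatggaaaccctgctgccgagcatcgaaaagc
snRNA:U1:21D, chr2L:901655-901724, minus strand: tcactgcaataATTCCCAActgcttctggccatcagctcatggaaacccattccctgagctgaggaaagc
snRNA:U1:82Eb, chr3R:4948097-4948166, minus strand: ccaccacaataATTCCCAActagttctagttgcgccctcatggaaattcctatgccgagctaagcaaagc
snRNA:U1:95Cb, chr3R:23827800-23827869, plus strand: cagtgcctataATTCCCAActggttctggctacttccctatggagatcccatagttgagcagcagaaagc
snRNA:U1:95Cc, chr3R:23826264-23826333, plus strand: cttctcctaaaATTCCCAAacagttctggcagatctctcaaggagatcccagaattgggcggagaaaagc

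The next promoters are shown because neighbours or relatives differed in binding. All but that of 7SKb hold the shorter core. The letters TTCNCAACT stood before the bound U4:39B, U6:96Ab and U6:96Ac, and not before the unbound U4:38AB and U6:96Aa. U2:34ABb and U2:34ABa both held these letters, and 7SKa and 7SKb both lacked them. These differences were not tested. U2:34ABb was bound and U2:34ABa, 3723 bp away, was not. U4:39B was bound and U4:38AB was not. Of the 3 U6 genes in a row, U6:96Ab and U6:96Ac were bound. The 7SKa promoter holds the shorter core 62 bp upstream and a TATAAA 31 bp upstream. The letters TATAAA or TATATA began 20 to 40 bp upstream of 7SKa, U6atac and all 3 U6 genes, and of no other snRNA gene.
snRNA:U2:34ABb, chr2L:13215769-13215838, plus strand: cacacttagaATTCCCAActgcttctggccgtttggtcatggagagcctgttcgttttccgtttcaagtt
snRNA:U2:34ABa, chr2L:13212117-13212186, minus strand: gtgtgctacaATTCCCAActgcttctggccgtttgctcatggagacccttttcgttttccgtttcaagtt
snRNA:U4:39B, chr2L:21215179-21215248, minus strand: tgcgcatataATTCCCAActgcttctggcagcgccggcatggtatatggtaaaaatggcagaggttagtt
snRNA:U4:38AB, chr2L:19810664-19810733, plus strand: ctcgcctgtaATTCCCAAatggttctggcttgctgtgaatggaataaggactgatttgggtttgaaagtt
snRNA:U6:96Aa, chr3R:24556018-24556087, plus strand: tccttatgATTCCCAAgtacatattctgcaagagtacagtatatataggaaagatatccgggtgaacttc
snRNA:U6:96Ab, chr3R:24556622-24556691, plus strand: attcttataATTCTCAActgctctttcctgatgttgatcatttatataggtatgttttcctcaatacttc
snRNA:U6:96Ac, chr3R:24557145-24557214, plus strand: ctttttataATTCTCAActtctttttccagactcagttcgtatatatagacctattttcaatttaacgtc
snRNA:7SKa, chr3R:7474997-7475066, minus strand: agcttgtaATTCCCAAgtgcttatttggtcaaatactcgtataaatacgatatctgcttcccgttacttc
snRNA:7SKb, chr3R:23432799-23432868, plus strand: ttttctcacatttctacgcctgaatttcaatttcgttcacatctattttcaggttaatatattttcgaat

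Camta-eGFP peaks lay at 9 of the 32 snRNA genes (28.1%, 95% Wilson interval 15.6 to 45.4). They came from 8 peaks, since U6:96Ab and U6:96Ac shared one. For comparison, the same call was met by 18.8% of 13945 protein-coding genes, and by 15.8% of all genes other than snRNA genes. The interval of the snRNA genes covers only the number of genes and spans the protein-coding share. Among other short RNA genes the share was 3.79% of 290 tRNA genes and 5.58% of 269 small nucleolar RNA genes, and among the remaining non-coding RNA genes it was 5.31% of 3261. These shares were not tested against each other. A protein-coding gene can have several starts; by the outermost start of each gene alone its share was 16.8%, an alternative chosen after the data had been seen.

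**Figure D1:**
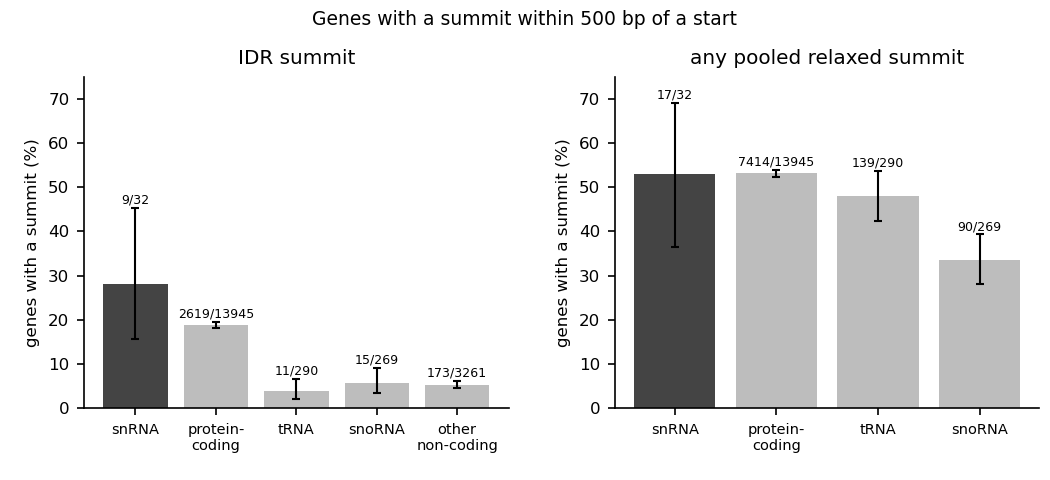
Share of genes (%) with a summit within 500 bp of a start, by gene class, for IDR summits on the left and for any summit of the pooled relaxed list on the right. Bars give the share, error bars the 95% Wilson interval and the labels the genes with a summit over all genes of the class; the snRNA genes stand at 28.1% and 53.1%.

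Weaker signal was counted as well. In the relaxed list of both replicates pooled, which holds peaks and background candidates before thresholding, 17 of 32 snRNA genes (53.1%) had a summit within 500 bp, beside 53.2% of protein-coding, 47.9% of tRNA and 33.5% of small nucleolar RNA genes. Of these 17 genes, 9 were the bound ones. Replicate 2 had a region at 16 genes, replicate 3 at 15, both at 12, and neither at 13. The share over other genes was not counted for these relaxed replicate lists, so the counts show no excess at snRNA genes. All 9 bound genes had a region in both. Each ranked among the 4033 strongest regions of either replicate, which is the length of the IDR list. The IDR list keeps peaks reproducible between these replicates, so this is no separate support for the call.

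U1 gave the strongest snRNA peak. At snRNA:U1:95Ca (chromosome 3R, 23859467 to 23859630, minus strand) the IDR peak from 23859294 to 23859717 had the authors' signal value 232 and rank 926 of 4033. In replicate 2 the region there had signal value 103 and ranked 737 of 30000, and in replicate 3 it had 133 and ranked 1061 of 29279. U1:21D (2L, 901491 to 901654, minus strand) was weaker, with signal value 134 and rank 2364, and values of 71.9 in replicate 2 (rank 1490) and 62.3 in replicate 3 (rank 3627). The other 3 copies were not bound. At U1:82Eb the strongest pooled region ranked 10674 of 30000, at U1:95Cb replicate 2 alone had a region, at rank 20316, and at U1:95Cc no list had one. The transcribed parts of U1:95Ca, U1:21D and U1:95Cb are identical over 164 bp, while the 100 bp before them were 58.0 to 66.0% identical among the 5 copies. The sequence that these 3 genes share, given here for U1:95Ca because the bound and unbound copies cannot be told apart within it, is as follows.
snRNA:U1:95Ca, chr3R:23859467-23859630, minus strand: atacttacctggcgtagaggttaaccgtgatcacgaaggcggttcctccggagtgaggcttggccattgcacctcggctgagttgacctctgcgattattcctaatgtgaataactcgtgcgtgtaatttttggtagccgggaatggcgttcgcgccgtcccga

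Among the other major spliceosome classes, 1 of 6 U2, 1 of 3 U4, 2 of 7 U5 and 2 of 3 U6 genes were bound. At snRNA:U2:34ABb (2L, 13215839 to 13216030, plus strand) the signal value was 148 and the rank 1996, with 63.3 in replicate 2 (rank 1818) and 84.3 in replicate 3 (rank 2287). The other 5 U2 genes had no region in the pooled list. U4:39B (2L, 21215036 to 21215178, minus strand) had the weakest of the snRNA peaks, with signal value 124 and rank 2666, with 40.5 in replicate 2 (rank 3995) and 89.9 in replicate 3 (rank 2018). U4:38AB came closest of the unbound genes. Its pooled region ranked 5759, with a −log10 q value of 1.99, and its ranks were 3637 in replicate 2 and 9688 in replicate 3, so replicate 2 alone placed it among its 4033 strongest. U4:25F had a pooled region at rank 29503 and none in either replicate.

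U5:63BC (3L, 3090801 to 3090923, plus strand) had signal value 168 and rank 1626, with 78.5 in replicate 2 (rank 1278) and 87.6 in replicate 3 (rank 2118). U5:35D (2L, 15751557 to 15751682, minus strand) had signal value 144 and rank 2077, with 49.0 (rank 2902) and 90.2 (rank 2006). The other 5 U5 genes had at most a pooled region at rank 27683, that of U5:38ABa; a region of replicate 2 at rank 12750 lay between U5:34A and U2:34ABc, within 500 bp of both starts. The peak shared by U6:96Ab (3R, 24556692 to 24556798, plus strand) and U6:96Ac (24557215 to 24557321) ran from 24556890 to 24557313, with signal value 181 and rank 1433, with 81.1 in replicate 2 (rank 1183) and 94.9 in replicate 3 (rank 1852). U6:96Aa, the first of the row, lay 1014 bp from that summit and had no region within 500 bp in any list. It was the unbound gene nearest to an IDR summit; over the 23 unbound genes that distance reached 22706 bp, and the bound gene farthest from its summit was U5:35D at 466 bp.

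No gene of the minor spliceosome was bound. U12 had the strongest signal of the 4, a pooled region at rank 10249 that ranked 6994 in replicate 3 and was absent from replicate 2. U11 ranked 26860 and U6atac 29058 in the pooled list, and U4atac had no region in any list. U7, at pooled rank 15359, had weak regions in both replicates, at ranks 18819 and 23445. Of the 2 genes named 7SK, 7SKa (3R, 7474553 to 7474996, minus strand) was bound, with signal value 129, rank 2515, and values of 46.2 in replicate 2 (rank 3209) and 81.6 in replicate 3 (rank 2399). 7SKb had no region in any list and lacks both PSEA cores. By edit distance over the longer gene, its 404 bp are 46.8% identical to 7SKa. This is below the lowest pair of any other class, 73.6% among the U4 genes. The 100 bp before the 2 starts are 45.0% identical. LU had no region within 500 bp either.

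**Figure D2:**
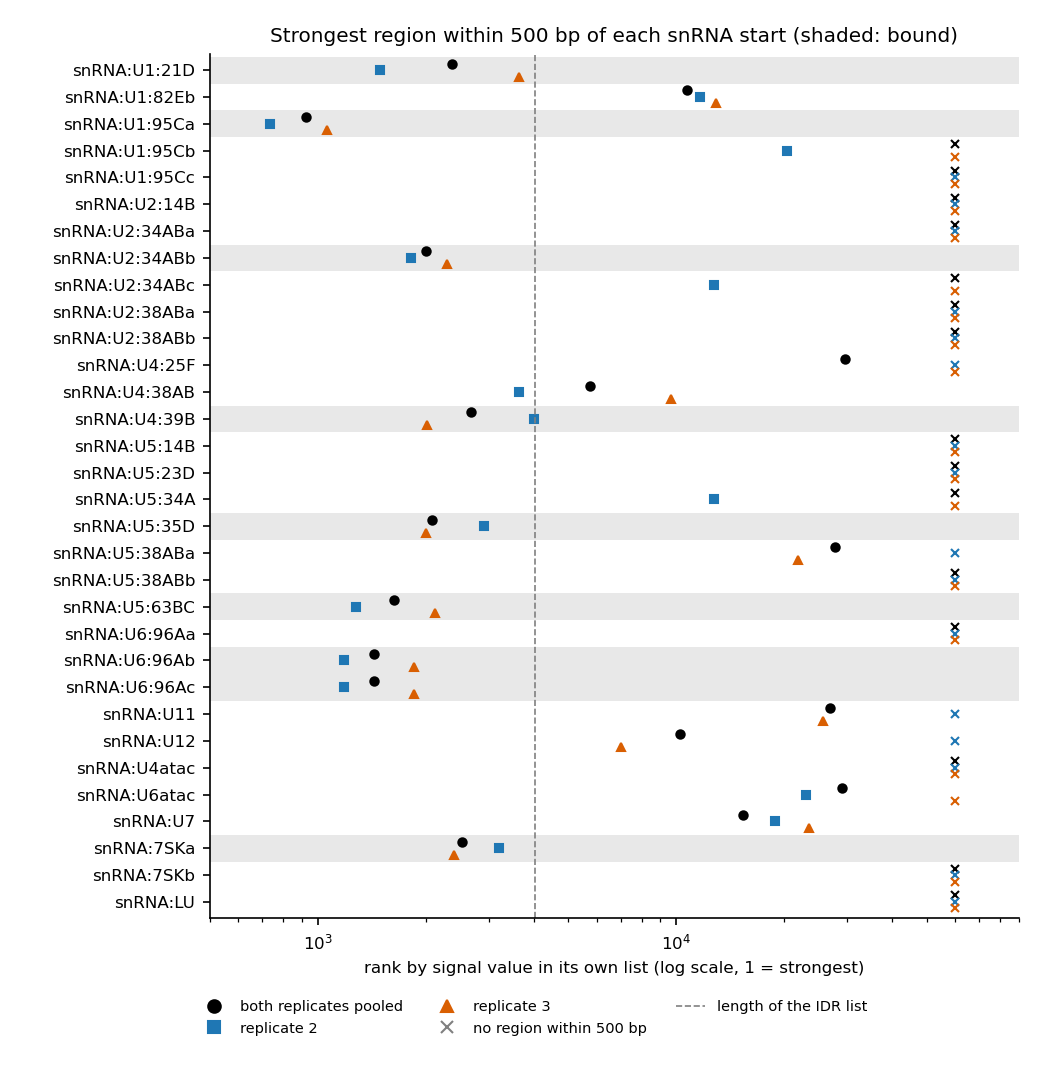
Rank by signal value, on a log axis where 1 is the strongest, of the strongest region within 500 bp of each of the 32 snRNA starts in the pooled list (circles), replicate 2 (squares) and replicate 3 (triangles); crosses mark genes without a region, the dashed line the length of the IDR list, and shading the bound genes. The 9 bound genes, called from peaks reproducible between the replicates, lie left of the line in all 3 lists. U4:38AB does so in replicate 2 alone.

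The snRNA peaks were of ordinary strength for this experiment. The median signal value of the 8 peaks was 146, beside 147 over all 4033 IDR peaks, whose values ran from 95.3 to 2218. Of the 8 peaks, 4 ranked in the upper 2016, and the best rank was 926. With those 2016 peaks alone, 5 genes were bound: U1:95Ca, U2:34ABb, U5:63BC, U6:96Ab and U6:96Ac.

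Most summits lay downstream of the snRNA start, inside the transcribed part. Of the 9 bound genes, 8 had the summit downstream, and for 6 of them it lay within the gene: U4:39B at 38 bp from the start, U1:21D at 76, U5:63BC at 78, U1:95Ca at 124, 7SKa at 176 and U2:34ABb at 179 bp. The summits outside a gene were those of U5:35D, 466 bp downstream, and the U6 peak, 410 bp downstream of U6:96Ab and 113 bp upstream of U6:96Ac. The median position over the 9 genes was 124 bp downstream. U5:35D and U6:96Ab count as downstream here, but another gene's start lay nearer to each summit. These summits lay 138 bp upstream of a start of the coding gene ND-B17 and 113 bp upstream of U6:96Ac. With a window of 250 bp, which drops both genes, the median was 78 bp downstream. Among the 2619 bound protein-coding genes 14.0% had the nearest summit downstream, with a median 113 bp upstream, and among the few bound tRNA and small nucleolar RNA genes 45.5% of 11 and 20.0% of 15. Among the 173 bound genes of the remaining non-coding RNAs the summit was downstream for 40.5% and inside the gene for 35.8%. The nearest summit lay inside the gene for 66.7% of the bound snRNA genes and 27.4% of the bound protein-coding genes. It did so for 0 of those 11 tRNA genes and 1 of those 15 small nucleolar RNA genes. The inside share depends on gene length, which was not matched between classes. For genes with several starts the whole gene span was counted as inside. These differences were not tested.

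**Figure D3:**
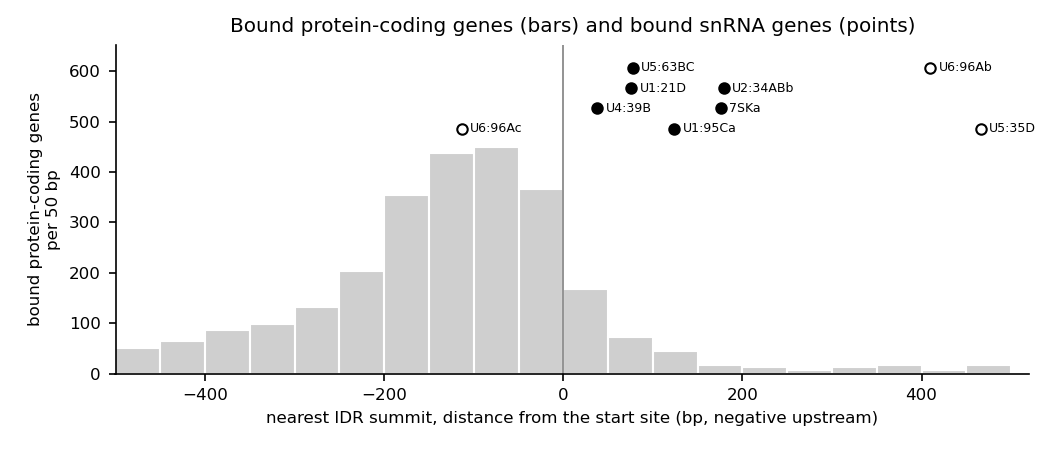
Distance of the nearest IDR summit from the start site (bp, negative upstream) for the 2619 bound protein-coding genes, as bars of genes per 50 bp, and for the 9 bound snRNA genes, as points placed above the bars at heights without meaning. Filled points mark summits inside the snRNA gene and open points summits outside it; 8 points lie right of the start, where 14.0% of the protein-coding genes lie.

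The replicates set the summits alike to within 4 to 125 bp, by the strongest region of each. The U6 peak was placed 117 bp upstream of U6:96Ac in replicate 2 and 105 bp in replicate 3, and 7SKa at 159 and 163 bp downstream. U2:34ABb was placed at 183 and 58 bp downstream, and U5:63BC 4 bp upstream and 100 bp downstream. U1:21D had a pair of regions in each replicate, at 147 bp downstream and 55 bp upstream in replicate 2, and at 158 bp downstream and 41 bp upstream in replicate 3, while the pooled summit lay between them at 76 bp. The strongest summit was downstream at 7 of the 9 bound genes in replicate 2 and at 8 in replicate 3, and inside the gene at 5 and 6. IDR peaks had a median width of 424 bp, longer than every bound gene but 7SKa. All 8 snRNA peaks had this same width with the summit at the middle, so it gives no extent of binding at single genes.

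**Figure D4:**
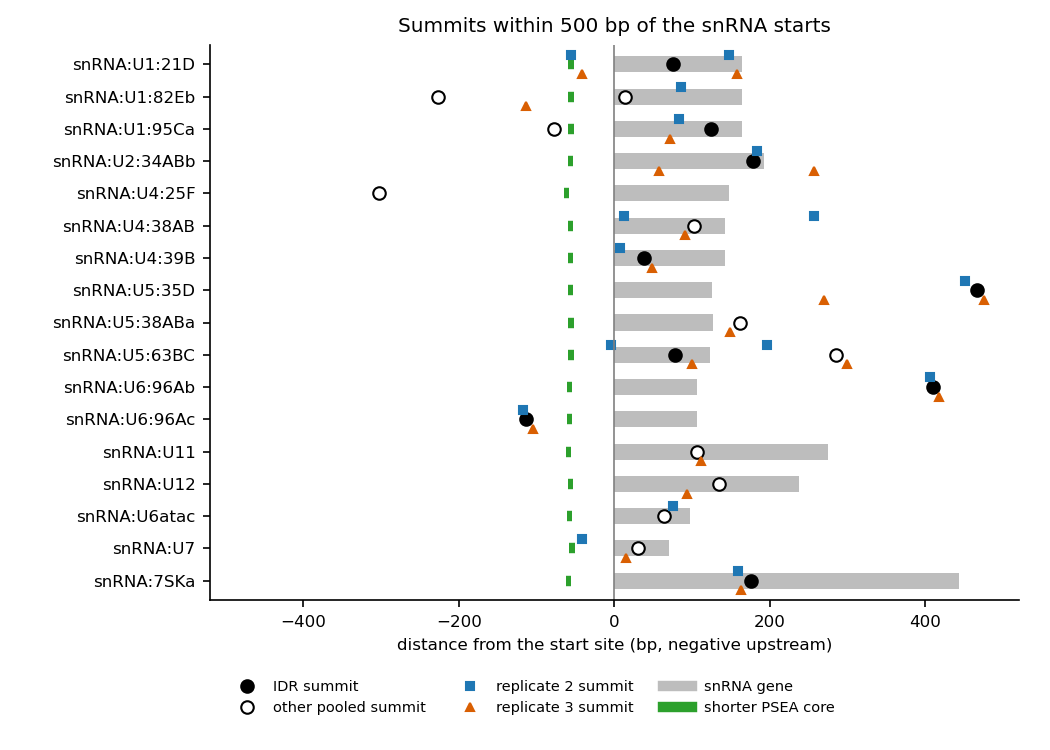
Summits within 500 bp of the start for the 17 snRNA genes with a pooled region, against distance from the start (bp, negative upstream): IDR summits (filled circles), other pooled summits (open circles), replicate 2 (squares) and replicate 3 (triangles). Grey bars are the snRNA genes to scale and green marks the shorter PSEA core, 58 to 65 bp upstream in these genes; the IDR summits of 6 genes fall on the grey bar.

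The 101 bases centred on each summit are shown for 5 peaks inside genes, with bases of the snRNA gene in capitals, because they show how much of each centre is transcribed sequence. All 101 bases belong to the gene at U1:21D and 7SKa, 90 at U1:95Ca, 89 at U4:39B and 63 at U2:34ABb. At U1:21D the pooled summit lay between the paired summits of each replicate, so this window is centred on neither of them. U5:63BC, with 95 gene bases, is not shown.
snRNA:U1:21D, chr2L:901528-901628, minus strand: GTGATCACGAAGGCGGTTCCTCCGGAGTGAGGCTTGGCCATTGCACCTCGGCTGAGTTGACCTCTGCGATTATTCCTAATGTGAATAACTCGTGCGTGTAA
snRNA:U1:95Ca, chr3R:23859456-23859556, minus strand: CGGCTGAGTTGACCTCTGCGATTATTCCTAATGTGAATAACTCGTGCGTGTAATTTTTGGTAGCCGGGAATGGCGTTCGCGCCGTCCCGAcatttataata
snRNA:U2:34ABb, chr2L:13215968-13216068, plus strand: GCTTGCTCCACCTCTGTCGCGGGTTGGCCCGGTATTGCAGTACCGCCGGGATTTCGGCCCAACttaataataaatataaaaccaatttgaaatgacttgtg
snRNA:U4:39B, chr2L:21215090-21215190, minus strand: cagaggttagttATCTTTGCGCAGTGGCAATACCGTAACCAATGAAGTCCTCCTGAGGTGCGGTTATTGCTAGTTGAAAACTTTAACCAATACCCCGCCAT
snRNA:7SKa, chr3R:7474770-7474870, minus strand: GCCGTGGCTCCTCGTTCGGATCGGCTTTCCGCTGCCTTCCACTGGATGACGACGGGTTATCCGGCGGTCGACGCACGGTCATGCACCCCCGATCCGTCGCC

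The centres of the peaks outside genes hold no snRNA base. The first is that of the U6 peak, between U6:96Ab and U6:96Ac, and the second that of U5:35D.
snRNA:U6:96Ab, chr3R:24557052-24557152, plus strand: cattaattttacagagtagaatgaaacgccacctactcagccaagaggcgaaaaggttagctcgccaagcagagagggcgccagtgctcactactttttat
snRNA:U5:35D, chr2L:15751166-15751266, minus strand: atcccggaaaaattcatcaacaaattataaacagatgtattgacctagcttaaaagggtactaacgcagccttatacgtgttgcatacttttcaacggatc

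Neither PSEA core was found in the 8 summit windows, on either strand. The cores stood in 0.446% (TTCNCAACT) and 2.06% (ATTCNCAA) of all 4033 windows. Each window reached 50 bp to either side of its summit, and the own core of every bound gene lay outside it. The absence was therefore set by summit position and does not show that the peaks lack the core. The IDR peak regions spanned the shorter core of U1:21D, U1:95Ca, U4:39B, U5:63BC and U6:96Ac. They did not span that of U2:34ABb, U5:35D, 7SKa and U6:96Ab. TATAAA was in 3 of the 8, at U2:34ABb, U5:35D and U1:95Ca, beside 17.6% of all windows. The letters CGCG, the core of the box that CAMTA proteins bind in vitro, were in 2, at U2:34ABb and U1:95Ca, beside 11.6%. Both matches lay inside the snRNA gene. The U1 match also stands in every unbound U1 gene, and the U2 match in the unbound U2:34ABa and U2:34ABc. GAGAG was in 2 of the 8 windows, at U5:63BC and the U6 peak, beside 10.1%. None held TATCGATA (DRE), its core CGATA or GGTCACAC (Motif 1), which stood in 2.16%, 17.5% and 1.29% of all windows. The windows held 36.6 to 67.3% G and C, the highest at 7SKa, and the median over all IDR summits was 34.7%. Motif matches are descriptions of the letters present and show no binding.

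A protein-coding start could own 1 of the 8 peaks. The summit at U5:35D lay 138 bp upstream of a start of ND-B17, a subunit of mitochondrial complex I. It lay 466 bp from the start of U5:35D, and the peak, from 15751004 to 15751427, did not reach that snRNA gene. Peak positions alone do not settle which gene owns this peak. At U2:34ABb the nearest coding start was that of kek4, which encodes a transmembrane protein, 668 bp from the summit. At 7SKa it was CG1142 at 1039 bp, and a separate and stronger IDR peak, of signal value 421 and rank 270, lay 1027 bp downstream of the 7SKa start and 188 bp from CG1142. The summits at U1:21D, U4:39B, the U6 genes, U5:63BC and U1:95Ca lay 2934, 3404, 8085, 8901 and 30546 bp from the nearest coding start, which belonged to Lsp1beta, CG8679, Esyt2, PAN3 and Pli. The nearest start of any other gene to the U1:21D summit was that of scaRNA:MeU1:95C-A24, at 504 bp. The snRNA start was the nearest annotated start for 7 of the 9 bound genes; U5:35D and U6:96Ab, whose peak lay closer to U6:96Ac, were the others. Of all 32 genes, 27 start more than 1000 bp from any coding start, and 3 within 500 bp: U6atac near CG42819, U2:34ABa near CG15482 and U2:34ABb near kek4.

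Most of the bound snRNA genes stood outside protein-coding genes. Of the 16 snRNA genes inside a protein-coding gene, none overlapping an annotated exon of it, 1 was bound, U4:39B inside Atg18b, an autophagy gene. Of the other 16, 8 were bound. Pooled regions were present at 6 and 11 genes, and regions in both replicates at 3 and 9. This split was chosen after the values were known and was not tested. It was not made for other genes, so it shows nothing particular to snRNA genes. Among the 8 bound genes outside, U6:96Ab and U6:96Ac shared a peak, and the summit at U5:35D lay nearer to ND-B17. The unbound genes inside hosts were the 5 genes inside sick, LU and U5:23D inside FASN2, U1:95Cb and U1:95Cc inside CG34355, U6:96Aa inside Esyt2, and U7, U11, U12, U4atac and 7SKb inside Eip63E, Fie, Baldspot, cno and CG4374.

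Bound genes were found both in clusters and alone. With starts at most 10 kb apart taken as a cluster, 18 genes formed 7 clusters, of which 3 genes were bound, and 6 of the 14 lone genes were bound; this was not tested either. The cluster inside sick, with U4:38AB, U5:38ABa, U2:38ABb, U2:38ABa and U5:38ABb over 5680 bp of 2L, held none. U5:14B and U2:14B, 555 bp apart on X, had no region in any list, and U2:34ABc and U5:34A, 287 bp apart, had none in the pooled list.

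Several snRNA genes are near-identical copies, where a read may match more than one place. The treatment of reads with several matches is unknown here. Copies were 98.2 to 100% identical among U1 genes, 98.4 to 100% among U2 genes, 100% among U6 genes, 77.8 to 96.1% among U5 genes and 73.6 to 94.4% among U4 genes. Words of 50 bases that occur at a single place in the genome, on either strand, made up a median of 0% of the bound genes and 46.2% of the unbound genes, each from 0 to 100%. Over the 500 bp before the start the median was 100% in both, with a lowest value of 91.4% for the bound genes and 59.2%, at U5:34A, for the unbound ones. Within the 424 bp around the summit such words made up 56.4% at U2:34ABb, 66.0% at U1:95Ca and 67.0% at U1:21D. They made up 85.9% at the U6 peak, 88.8% at U5:63BC, 89.4% at U4:39B, and 100% at U5:35D and 7SKa. Low shares around the gene were found at U2:38ABa, U2:34ABc and U2:38ABb, with 46.8, 51.8 and 51.9% over 500 bp to either side of the start. Among the unbound genes, LU, U4:25F, U6atac, U7, U11, U12, U4atac and 7SKb had 100%. The part of copy number in these peaks was not tested.

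**Figure D5:**
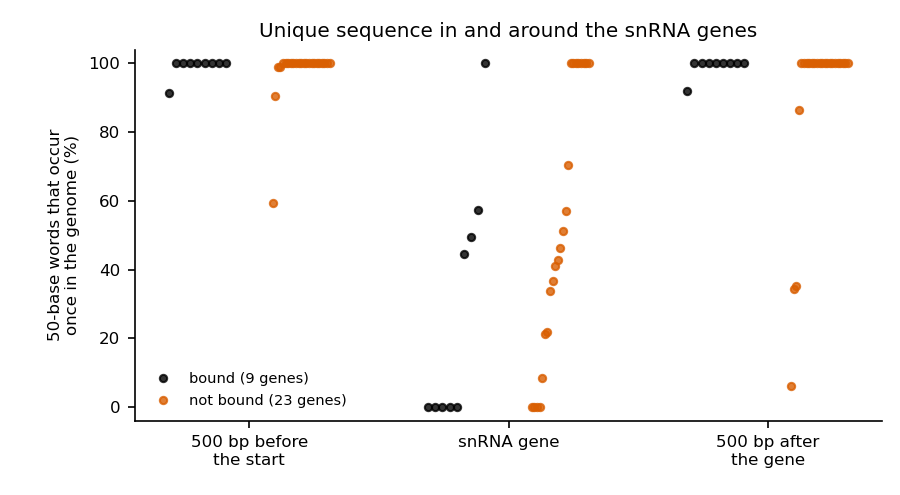
Share of 50-base words that occur at a single place in the genome (%), in the 500 bp before the start, in the snRNA gene and in the 500 bp after it, for each of the 9 bound (black) and 23 unbound (orange) snRNA genes, 1 point per gene and ordered by value. Within the genes 5 bound genes stand at 0%, and outside them most points of both groups stand at 100%.

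Genes whose proteins make and handle snRNAs were looked up in the same way. Of 50 such genes matched by symbol, 17 (34.0%) were bound, beside 18.8% of protein-coding genes; 15 of the 17 had the summit upstream, and for 12 another gene also had a start within 500 bp of the summit. The Integrator complex, which cleaves snRNA 3′ ends, had 8 of 14 bound: IntS9 with signal value 335, IntS6 with 331, defl with 301, omd with 194, IntS10 with 165, IntS11 with 121, IntS12 with 118 and IntS4 with 112. Polymerase III factors had 2 of 3, Bdp1 with 749 at rank 63 and Brf with 387. Among proteins of U6 and 7SK RNA 4 of 6 were bound: bin3, the 7SK capping enzyme, with 413, La with 154, Larp7 with 103 and CycT, the cyclin of P-TEFb, with 97.1. Of the little elongation complex 1 of 2 genes was bound, Ice1 with 190. Of the snRNP assembly genes 1 of 9 (11.1%) was bound, Smn with 177, and of the transport and capping genes 1 of 5 (20.0%), the cap-binding protein gene Cbp20 with 152. The SNAP complex genes Pbp45, Pbp49 and Pbp95, the 6 Sm ring genes matched and the U7 protein genes Lsm10 and Lsm11 were not bound; SmG was not matched and not looked up.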

How the data were processed

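ChIP-seq peak lists of 2 biological replicates of Camta-eGFP embryos were used. Per the file records deposited by the authors, relaxed lists of 30000 regions for replicate 2, 29279 for replicate 3 and 30000 for both pooled were made on dm6 from the alignments and 1 further file, taken to be the control. The 4033 optimal IDR peaks were derived from these. No source used here names the peak caller or the aligner. The signal value of each region was deposited by the authors and its scaling is not given; it ranks regions within a list only. The −log10 q value was also deposited by the authors. No file gives read counts, so depth is unknown.

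The deposited summit offset was added to the region start and counted from 1. Starts came from Ensembl release 115 (BDGP6.54, dm6 coordinates), with every transcript start for other genes, on the 6 main arms. Sequence came from the RefSeq Release 6 assembly. Words of 36 and 50 bases were counted over the whole assembly. Of the listed snRNA pathway symbols, 6 were not matched and were left out. Every snRNA gene is named, with neighbours whose start lies near a bound summit. Members and lists were chosen with earlier results of these data known. No test was run: shares are given side by side, with 95% Wilson intervals that cover the number of genes only. Alternatives covered the window (250 and 1000 bp), a q value of 0.01 in the pooled list, each replicate alone, the stronger peaks, region overlap, the classes counted, shared starts and the motif search. Calculations were tested on simulated data. Python 3.11.15, NumPy 2.4.6, pandas 2.3.3 and SciPy 1.17.1 were used.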

Additional observations from a re-analysis of the deposited data

How the results depend on the processing

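The count of 9 bound snRNA genes was 7 to 10 under every alternative except the stronger peaks. It was 7 within 250 bp, which lost U5:35D and U6:96Ab, and 9 within 1000 bp and among pooled regions with a q value of 0.01 or less. Leaving out a replicate meant taking the 4033 strongest regions of the other. The count was then 9 to 10, all 9 genes kept and U4:38AB gained without replicate 3. The IDR list was made from these same replicates, so keeping the 9 genes is no independent support. Counting peak regions that overlap the gene gave 7, the 28 spliceosomal genes alone 8, and starts within 500 bp counted together 9 of 31. With the strongest 2016 IDR peaks alone the count was 5, of which 5 had no coding start within 500 bp of the summit, against 8 among all peaks, and 4 had the snRNA start nearest, against 7. Without a replicate these were 8 to 9 and 7 to 8. The median summit position moved from 124 to 78 bp downstream with the 250 bp window and was 100 to 115 bp without a replicate. The protein-coding share of 18.8% moved to 15.3% and 21.6% with windows of 250 and 1000 bp, 24.4% at the q value limit, 10.1% with the stronger peaks, 16.8% by the outermost start, and 18.0 to 18.9% without a replicate. The count of 17 promoters with TTCNCAACT rose to 28 with 1 mismatch and to 31 with the shorter letters, and was 17 on both strands and in the longer stretch. No paired analysis was possible because both replicates belong to 1 group. Depth is unknown, so an unbound gene is one without a peak in these lists, not one shown to lack binding.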
